A study of Mus musculus with 10 samples.

Results

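The nuclear genes of respiratory complexes III and IV, of cytochrome c and of ATP synthase were followed in mouse haematopoietic stem cells in which Dhx16, an RNA helicase that acts in pre-mRNA splicing, was or was not knocked out. The members were all protein-coding genes of the deposited table whose symbol begins with Uqcr, Cox4 to Cox8 or Atp5, with Cyc1 and Cycs added. This gave 45 genes of the 52097 in the table, of which 21833 were protein-coding: 9 of complex III, 1 for cytochrome c, 18 of complex IV and 17 named as ATP synthase genes. The control group held 5 samples with titles in Dhx16_fl and genotype WT, and the knockout group 5 samples with titles in Dhx16_CKO and genotype KO. Each sample was a sort of about 5000 bone marrow cells by the surface profile Lin- Sca-1+ c-Kit+ CD48- CD150+, and RNA was copied and amplified with the Smart-Seq V4 kit before Illumina sequencing. The age of the mice and the Cre driver of the knockout were not given in the sources used here. Whether every sample is its own animal is not stated either, so p-values measure only the spread between these samples, which may be technical.

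The respiratory chain passes electrons from food to oxygen at the inner mitochondrial membrane. Complex III takes them from ubiquinol and hands them to cytochrome c, complex IV takes them from cytochrome c and reduces oxygen, and both move protons outward. ATP synthase lets the protons flow back through a rotating ring of c subunits, which turns the stalk inside its F1 head and drives the making of ATP. Haematopoietic stem cells at rest are known for leaning on glycolysis and for raising mitochondrial respiration when they begin to cycle or differentiate.

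Levels are given in FPKM, the unit inferred for the deposited library columns, which name none. FPKM is a fragment count per transcript length and library size, so levels of different genes may be set side by side. The 5 control columns are called WT2 to WT6 and the 5 knockout columns CKO7, CKO8, CKO9, CKO12 and CKO13, and values of single libraries are listed in that order. Changes are knockout minus control on the scale log2(FPKM + 1), from limma fitted across the 6913 genes that reached 10 FPKM in at least 5 libraries. A gene is called higher or lower at a Benjamini-Hochberg adjusted p under 0.05. Dhx16 itself lay between 14.3 and 22.6 FPKM in the controls and between 7.10 and 10.9 FPKM in the knockouts, so that its RNA was lower but not gone (limma log2 change -0.81, SE 0.16, adjusted p = 0.000638). Library sums over all genes ran from 770789 to 957520 FPKM in the controls and from 877099 to 966648 FPKM in the knockouts, and the read depth behind the values is unknown.

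Of the sort markers, Kit and Ly6a (Sca-1) were present in both groups and not called. Slamf1 (CD150) had a mean of 21.5 FPKM in the controls and 10.9 FPKM in the knockouts and was called lower. Cd48, against which the cells were sorted, was also present, with means of 10.3 FPKM in the controls and 6.86 FPKM in the knockouts. Its groups overlapped, and it did not pass the filter and was not tested. Some markers of other cells differed between the groups, where 21.1% of all 6913 tested genes were called higher and 31.6% lower. All 8 erythroid markers without globins were called higher, with summed levels of 120 to 397 FPKM in the controls and 753 to 1177 FPKM in the knockouts, and all 4 globin genes were called higher. All 6 megakaryocyte markers were called lower (1455 to 2213 against 705 to 1394 FPKM). The macrophage list fell too, with all 3 tested of its 6 genes called lower (117 to 272 against 10.6 to 27.5 FPKM). None of the 6 granulocyte markers was called by limma, and 1 was lower at an unadjusted p under 0.05, but all 6 estimates were below 0 (median log2 change -1.32), with sums of 9623 to 74170 FPKM in the controls and 8348 to 40842 FPKM in the knockouts. None of the 6 bone matrix markers was called or had an unadjusted p under 0.05 (median log2 change -0.04), with sums of 3180 to 65871 and 4549 to 47778 FPKM. No gene of these lists was at 0 in every library. The part these cells had in the results below was not tested, and fewer cells of a type and less RNA per cell cannot be told apart.

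RNA of the respiratory subunits was higher in the knockouts across the 3 complexes. The 45 genes together summed to 8620 ± 1836 FPKM in the controls and 16181 ± 324 FPKM in the knockouts (SD, n = 5 each), which is 1.03% ± 0.13 and 1.77% ± 0.06 of all FPKM in a library. No library of one group reached into the range of the other, since the controls ran from 0.865% to 1.23% and the knockouts from 1.69% to 1.83%. The sums were 1569 ± 452 against 2829 ± 80 FPKM for complex III, 2838 ± 703 against 5123 ± 148 FPKM for complex IV and 4156 ± 679 against 8100 ± 299 FPKM for ATP synthase.

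Of the 45 genes, 39 passed the filter on low values, and each of these 39 stood at 10 FPKM or more in all 10 libraries. Among the 39, 35 were called higher, where 21.1% of all 6913 tested genes were. Another 2 were called lower, where 31.6% of all tested genes were, and 2 were not called. In 29 members every knockout library lay above every control library, as in 12.9% of all tested genes. In 2 members every knockout library lay below every control library, as in 22.1% of all tested genes, and the groups overlapped in 8. The median change of the 39 was 0.89, beside -0.12 for all tested genes. Group means at least doubled in 13 members.

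The scaling between libraries moved all genes together. Over all tested genes the median change became -0.25 with equal library totals and 0.36 with upper-quartile scaling, and the share of higher genes among all called genes went from 40.1% with the values as deposited to 28.3% and 85.9%. Measured against the median of all tested genes, the members' median was 1.0 higher with the values as deposited and between 1.0 and 1.02 higher under the 4 other scalings. A scaling shifts the change of every gene alike apart from the pseudocount. This gap could therefore hardly move, and its steadiness is no separate support. In the authors' deposited table, whose columns have the form of DESeq2 output, 36 of the 40 members with an adjusted p were higher and 1 was lower. The share of all genes called in that table was not computed. Its median log2 fold change was 1.25 for the 39 tested members, beside 0.29 for all genes tested here that have an adjusted p there.

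**Figure D1:**
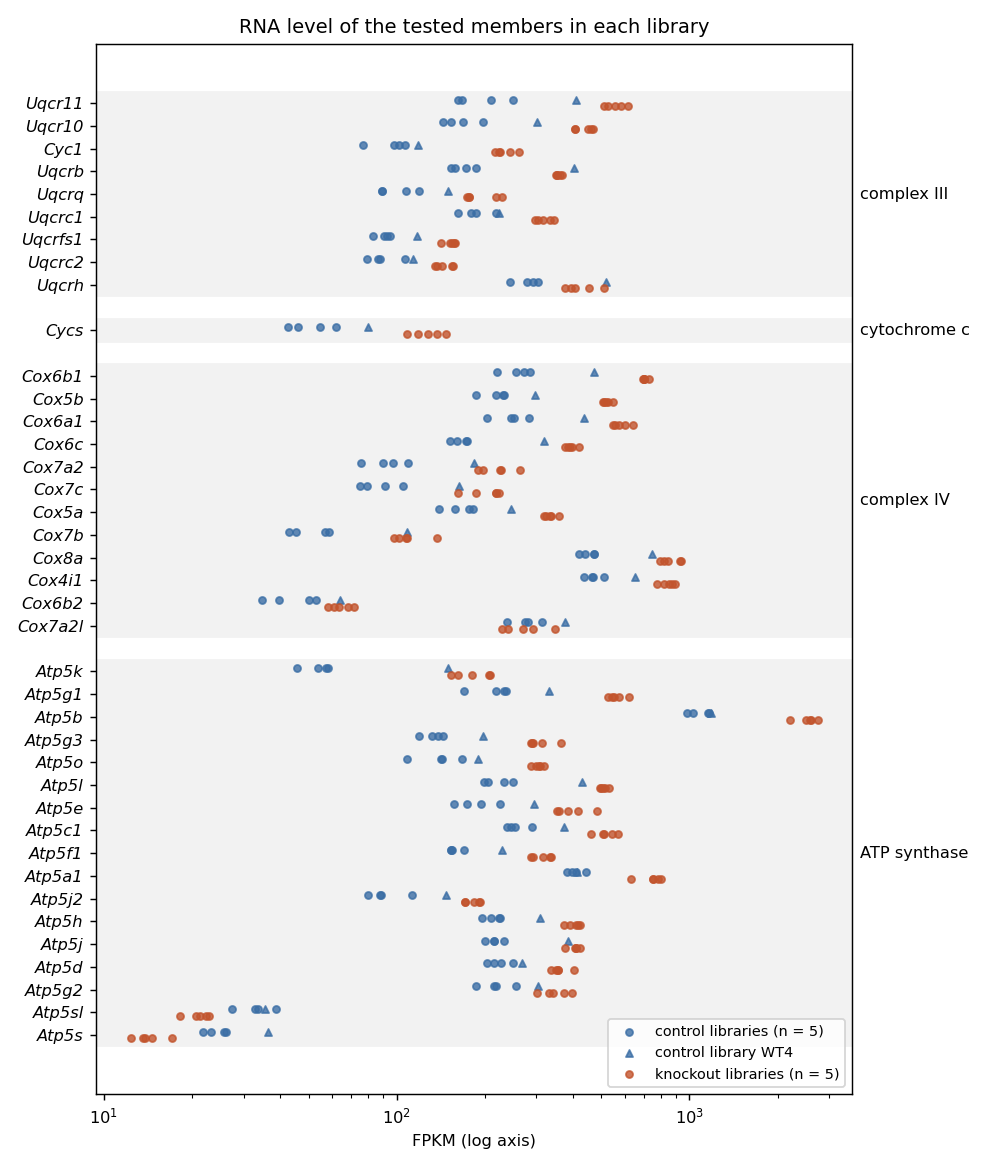
Level of each tested member in each library, on a log axis of FPKM, grouped by complex. Blue points are the 5 control libraries, the blue triangle is control library WT4, and orange points are the 5 knockout libraries. In 29 rows all orange points lie to the right of all blue ones, and WT4 is the highest control in 37 of 39 rows.

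**Figure D2:**
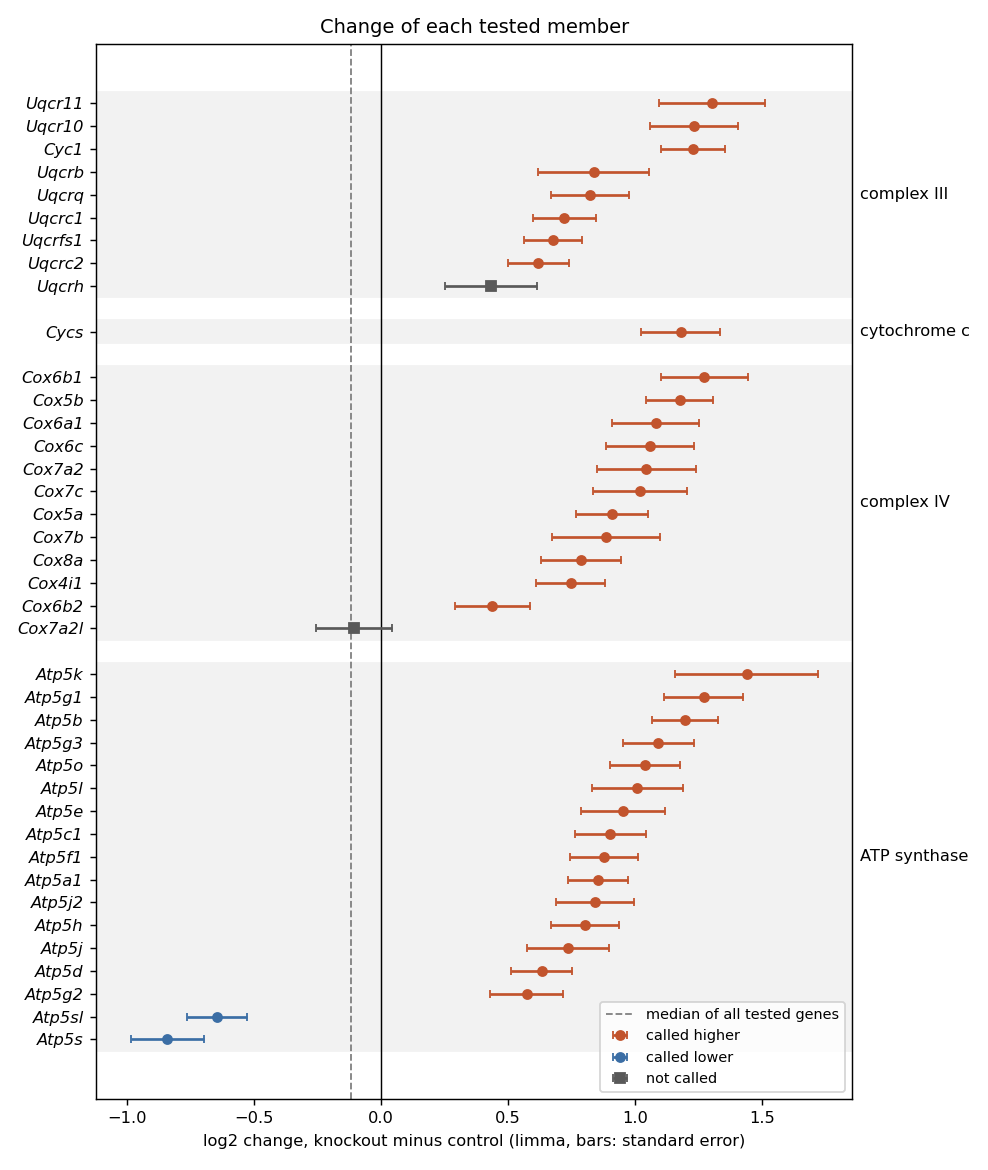
Change of each tested member, knockout minus control, on the log2(FPKM + 1) scale with its standard error from limma, grouped by complex. The dashed line is the median of all 6913 tested genes at -0.12. Of the 39 members, 35 are called higher, Atp5s and Atp5sl are called lower, and Uqcrh and Cox7a2l are not called.

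The complexes did not differ much in their medians. The median change was 0.82 for the 9 genes of complex III (0.43 to 1.30), 0.96 for the 12 tested genes of complex IV (-0.11 to 1.27) and 0.88 for the 17 of ATP synthase (-0.84 to 1.44). Once Atp5s and Atp5sl are set aside, the 15 ATP synthase subunits had a median of 0.90 and ran from 0.57 to 1.44. The spread within each complex was wider than the gap between the medians, and no test of the complexes against each other was made.

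In complex III, 8 of 9 genes were called higher, and the groups were apart in 7 of them. Both catalytic subunits that carry electrons rose. Cyc1, the cytochrome c1 that passes the electron to cytochrome c, went from 100.2 ± 15.2 to 235 ± 18.1 FPKM (SD, n = 5 each), a log2 change of 1.23 (SE 0.13, limma adjusted p = 5.05e-06). Uqcrfs1, the Rieske iron-sulfur protein, rose less, with 83.2 to 117 FPKM in the controls and 142 to 158 FPKM in the knockouts (log2 change 0.68). The core proteins Uqcrc1 and Uqcrc2, which face the matrix and hold no redox group, rose by 0.72 and 0.62 on the log2 scale, and neither had a control library as high as a knockout library.

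The small accessory subunits of complex III spread the most. Uqcr11, the smallest of them and the gene of complex III with the highest mean over all libraries, measured 210.5, 162, 408, 167 and 250.5 FPKM in the controls and 558, 584, 528, 511 and 618 FPKM in the knockouts. Its log2 change was 1.30 (SE 0.21, limma adjusted p = 0.000168). The controls were low except WT4, and WT4 too stayed under the lowest knockout. Uqcr10 gave 168, 153, 302, 143 and 196 FPKM against 460.4, 449, 407, 406 and 468 FPKM, a log2 change of 1.23 (SE 0.17, limma adjusted p = 4.98e-05). Its pattern over the libraries was the same, with WT4 above the other controls and below all knockouts. Uqcrq rose by 0.82 with the groups apart, and Uqcrb rose by 0.84 with the groups overlapping, since WT4 at 403 FPKM lay above all knockouts (351 to 367 FPKM).

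Uqcrh, the hinge protein near the cytochrome c docking site, was the gene of complex III with the smallest change. It stood at 278, 243, 519.6, 291 and 303 FPKM in the controls and at 455, 375, 394, 512 and 407 FPKM in the knockouts. WT4 was the highest of all 10 libraries, while the other 4 controls lay below every knockout. The log2 change of 0.43 had a 95% interval of 0.05 to 0.82 and missed the threshold (SE 0.18, limma adjusted p = 0.0539). Without WT4 it was 0.61 and called (limma adjusted p = 0.000443). With all libraries it was also called under upper-quartile, median-of-ratios and authors' scaling and with library quality weights (limma adjusted p = 0.00082, 0.0303, 0.000882 and 0.00443).

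Cycs, the mobile electron carrier between complexes III and IV, which also triggers the apoptosome when it leaks from mitochondria, measured 54.8, 62.0, 79.9, 42.6 and 46.0 FPKM in the controls and 138, 128, 109, 118 and 148 FPKM in the knockouts. All knockouts lay above all controls, and the means differed 2.25-fold. The log2 change was 1.18 (SE 0.16, limma adjusted p = 3.02e-05). Its mean level was below that of every tested subunit of complex III in the controls.

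In complex IV, the 10 subunits of the common somatic form were all called higher, with a median change of 1.03 and with the groups apart in 8. The 2 whose groups overlapped were Cox7b and Cox7c. Cox8a, which had the highest mean of the complex, measured 438, 472, 744, 420.0 and 472 FPKM in the controls and 934, 819, 790.1, 925 and 842 FPKM in the knockouts. WT4 was far above the other 4 controls but below all knockouts (log2 change 0.79, SE 0.16, limma adjusted p = 0.000687). Cox4i1, the regulatory subunit that binds ATP, changed the least of the 10, by 0.75 on the log2 scale. It measured 512, 467, 652, 437 and 466 FPKM in the controls and 820.1, 853, 874, 896 and 778 FPKM in the knockouts, which were all higher than the controls.

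The largest changes of complex IV were in Cox6b1 and Cox5b. Cox6b1, which sits where complex IV forms its dimer, gave 272, 255, 474, 219.9 and 285 FPKM against 728, 699, 699.7, 693 and 697 FPKM. The knockouts were almost level with each other, and the log2 change was 1.27 (SE 0.17, limma adjusted p = 3.36e-05). Cox5b, a zinc-binding subunit on the matrix side, gave 232, 219, 297, 187 and 229.9 FPKM against 507, 519.8, 509, 526 and 548 FPKM. Its groups were far apart in every library, and the log2 change was 1.18 (SE 0.13, limma adjusted p = 8.67e-06). Cox6a1, Cox6c, Cox7a2 and Cox7c rose by 1.02 to 1.08, Cox5a by 0.91 and Cox7b by 0.89. Cox6a1, the common form of a subunit that has a muscle form, gave 252, 245, 437, 204 and 283 FPKM against 600.2, 576, 546, 558 and 639 FPKM. Cox7b gave 45.1, 56.9, 109, 43.0 and 58.8 FPKM against 108, 98.2, 102, 108 and 137 FPKM, so that WT4 alone of the controls lay among the knockouts.

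The tissue forms of complex IV subunits were mostly silent. Cox8b, a muscle form, was listed at 0 in all 10 libraries. Cox6a2 and Cox7a1, also of muscle, reached at most 0.71 and 1.44 FPKM, and the testis forms Cox7b2 and Cox8c reached at most 0.57 and 1.17 FPKM. The summed muscle markers Ckm, Acta1 and Myh4 stayed at or under 1.17 FPKM and the testis markers Prm1 and Tnp1 at or under 0.67 FPKM. Cox4i2, the form linked to low oxygen and to lung, was low, with 5.38, 3.93, 10.4, 2.09 and 5.44 FPKM against 6.24, 7.09, 8.98, 5.11 and 7.28 FPKM. These groups overlapped, and the gene did not pass the filter. The exception was Cox6b2, described mainly in testis, which measured 50.3, 39.7, 63.8, 34.6 and 53.0 FPKM in the controls and 58.1, 63.5, 71.7, 61.0 and 68.3 FPKM in the knockouts. Again only WT4 reached into the range of the knockouts. Cox6b2 was called higher by a small margin (log2 change 0.44, SE 0.15, limma adjusted p = 0.0212), and the call was lost without WT3 (adjusted p = 0.0575) or without WT5 (adjusted p = 0.0621) in the same limma fit. It was also lost with equal library totals, with no filter and with the granulocyte and bone matrix scores as covariates (limma adjusted p = 0.0917, 0.0903 and 0.191).

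In ATP synthase, the 15 subunits were all called higher, and the groups were apart in 13 of them. All 5 genes of the F1 head, which holds the catalytic sites, were called higher with the groups apart. Atp5b, the catalytic beta subunit and the most abundant of all members, measured 1154, 1025, 1188, 982 and 1162 FPKM in the controls and 2743, 2582, 2601, 2499.9 and 2208 FPKM in the knockouts. The lowest knockout was well above the highest control, and the log2 change was 1.20 (SE 0.13, limma adjusted p = 7.28e-06). Atp5a1, the alpha subunit that alternates with beta in the head, rose less, from 409 ± 21.8 to 742 ± 66.5 FPKM (SD, n = 5 each), a log2 change of 0.86. The level of Atp5b over that of Atp5a1 was 2.57 to 2.88 in the controls and 3.25 to 3.50 in the knockouts, with no overlap. Atp5c1 and Atp5e of the central stalk rose by 0.90 and 0.95 and Atp5d, the delta subunit of that stalk, by 0.63.

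The peripheral stalk, which keeps the head from turning with the ring, rose in all 4 genes (Atp5o 1.04, Atp5f1 0.88, Atp5h 0.80 and Atp5j 0.74). Of these, Atp5j overlapped between the groups through WT4 at 384 FPKM. The 3 accessory membrane subunits, which help dimers of the enzyme form at the cristae, rose as well. Atp5k, the subunit e, measured 45.7, 58.0, 149, 57.4 and 54.0 FPKM in the controls and 206, 153, 161, 181 and 208 FPKM in the knockouts. WT4 lay close under the lowest knockout, while the other 4 controls lay between 45.7 and 58.0 FPKM. The log2 change of 1.44 was the largest of all members and had the widest error (SE 0.28, limma adjusted p = 0.00154). Atp5l, the subunit g, rose by 1.01 and Atp5j2, the subunit f, by 0.84.

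The lower pair, Atp5s and Atp5sl, are named after ATP synthase but are no subunits of its core. Atp5s (chr12:69724950-69744660, plus strand), also known as coupling factor B, measured 26.1, 25.7, 36.3, 21.7 and 23.2 FPKM in the controls and 14.5, 13.8, 12.3, 17.1 and 13.6 FPKM in the knockouts. All knockouts lay below all controls, and the log2 change was -0.84 (SE 0.14, limma adjusted p = 0.000216). Atp5sl (chr7:25619414-25625551, plus strand), an assembly factor of complex I, measured 38.6, 27.3, 35.5, 33.5 and 32.7 FPKM in the controls and 22.3, 21.3, 22.8, 20.6 and 18.1 FPKM in the knockouts. These groups were apart too (log2 change -0.64, SE 0.12, limma adjusted p = 0.000374), but the call was lost with upper-quartile scaling, where the change was -0.17 (limma adjusted p = 0.214), and with scaling to the authors' fold changes. The authors' deposited log2 fold changes were smaller, at -0.44 for Atp5s (Wald test, adjusted p = 0.0292) and -0.25 for Atp5sl (Wald test, adjusted p = 0.149). Their control means of 26.6 and 33.5 FPKM were the lowest of the tested members.

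Cox7a2l, known as a factor that joins complexes III and IV into supercomplexes, was the other gene that did not follow the subunits. It measured 281, 239, 375, 313 and 274 FPKM in the controls and 291, 239.7, 271, 347 and 228 FPKM in the knockouts. The groups covered nearly the same range. The log2 change was -0.11 with a 95% interval of -0.43 to 0.21 (SE 0.15, limma adjusted p = 0.578), whose upper end lies below the estimated change of every somatic complex IV subunit. Its sign turned with upper-quartile scaling (0.39) and with scaling to the authors' fold changes (0.31), and it was called under neither.

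Isoform pairs were compared as the log2 ratio of their levels within a library, which does not depend on the scaling between libraries apart from the pseudocount. A library effect that goes with gene length, as described for WT4 below, need not cancel where the genes of a pair differ in length. Of 10 pairs listed, 6 had both genes at 1 FPKM or more in at least 5 libraries and were tested with a two-sided exact permutation test, whose smallest possible p here is 0.00794. The 4 pairs of Cox6a2, Cox7a1, Cox7b2 and Cox8b with their common forms were too low to test. The ratio differed between the groups in 4 of the 6 pairs, each with no overlap of the libraries and each at the smallest p (adjusted p = 0.0119 over the 6 pairs). In each of these 4 pairs WT4 was the control nearest to the knockouts. The Atp5g ratios depend on each other, and both Atp5g pairs that differed contain Atp5g2, so they are not separate results. The share of other gene pairs that would separate in this way was not computed.

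The c ring is coded by 3 genes that make the same mature protein with different import signals, as textbooks describe. Atp5g1 (chr11:96068852-96075670, minus strand) measured 237, 219, 332, 169 and 233 FPKM in the controls and 542, 621, 551, 528 and 574 FPKM in the knockouts. Atp5g2 (chr15:102662864-102672352, minus strand) measured 255, 215, 304, 186 and 218 FPKM against 331, 341, 396, 372 and 301 FPKM. Atp5g3 (chr2:73908447-73911326, minus strand) measured 144, 139, 196, 119 and 132 FPKM against 314, 292, 287, 365 and 289 FPKM. All 3 were called higher, but Atp5g2 had the smallest change of the 15 subunits (0.57, SE 0.14, limma adjusted p = 0.00349) and its groups overlapped, whereas Atp5g1 and Atp5g3 rose by 1.27 and 1.09 with the groups apart.

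The make-up of the c ring RNA therefore differed between the groups. The log2 ratio of Atp5g1 to Atp5g2 was 0.00 ± 0.12 in the controls and 0.70 ± 0.21 in the knockouts (SD, n = 5 each), with an exact permutation p of 0.00794 and an adjusted p of 0.0119. That of Atp5g2 to Atp5g3 was 0.69 ± 0.08 and 0.17 ± 0.18 (exact permutation p = 0.00794, adjusted p = 0.0119). The ratio of Atp5g1 to Atp5g3 differed by 0.18, with overlapping groups (exact permutation p = 0.151, adjusted p = 0.181). As shares of the 3 genes' summed FPKM, Atp5g1 and Atp5g2 were equal in the controls at 38.2% ± 1.79 and 38.2% ± 1.45, and stood at 46.2% ± 3.30 and 28.5% ± 2.39 in the knockouts. Atp5g3 held 23.6% ± 1.04 and 25.3% ± 2.36.

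The other families that shifted were Cox7a and Cox6b. Cox7a2 (chr9:79755361-79759878, minus strand), the common form, measured 97.2, 89.5, 183, 75.8 and 109 FPKM in the controls and 227, 225, 198, 189.7 and 265 FPKM in the knockouts. The log2 ratio of Cox7a2l to Cox7a2 was 1.46 ± 0.37 in the controls and 0.31 ± 0.41 in the knockouts (SD, n = 5 each), with an exact permutation p of 0.00794 and an adjusted p of 0.0119. Cox7a2l held 73.1% ± 4.81 of the family's FPKM in the controls and 55.3% ± 6.91 in the knockouts. Within that family the knockouts varied, and CKO13 was the only library in which Cox7a2 exceeded Cox7a2l. The ratio of Cox6b2 to Cox6b1 was -2.60 ± 0.19 and -3.43 ± 0.14 (exact permutation p = 0.00794, adjusted p = 0.0119), so the share of Cox6b2 was 14.0% ± 1.61 in the controls and 8.40% ± 0.74 in the knockouts. Both shifts were toward the gene with less annotated exon (Cox7a2 944 against Cox7a2l 1478 bp, Cox6b1 708 against Cox6b2 1108 bp). Those of the c ring were toward the genes with more annotated exon (Atp5g1 4912 and Atp5g3 2181 against Atp5g2 1675 bp). Annotated exon counts every base in any exon of a gene over all its transcripts. It can exceed the length of each single transcript, so it need not rank the genes by the RNA present. The part of length in these ratios was not tested. The ratio of Cox4i2 to Cox4i1 differed by -0.34 with overlap (exact permutation p = 0.222, adjusted p = 0.222), and Cox4i2 held about 1.01% of that family in the controls and 0.82% in the knockouts.

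**Figure D3:**
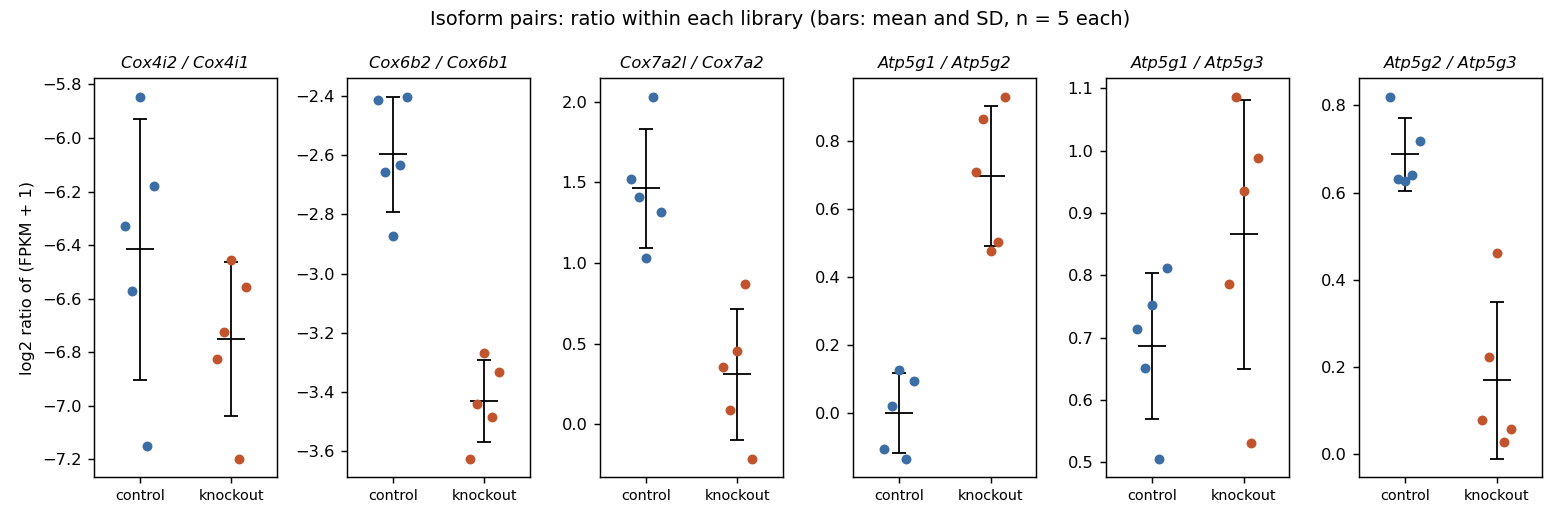
Log2 ratio of the 2 genes of each tested pair in each library, computed on FPKM + 1. Points are libraries (5 control, 5 knockout), the bars are mean and SD, and each panel has its own axis. Points do not overlap between the groups for Cox6b2/Cox6b1, Cox7a2l/Cox7a2, Atp5g1/Atp5g2 and Atp5g2/Atp5g3.

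**Figure D4:**
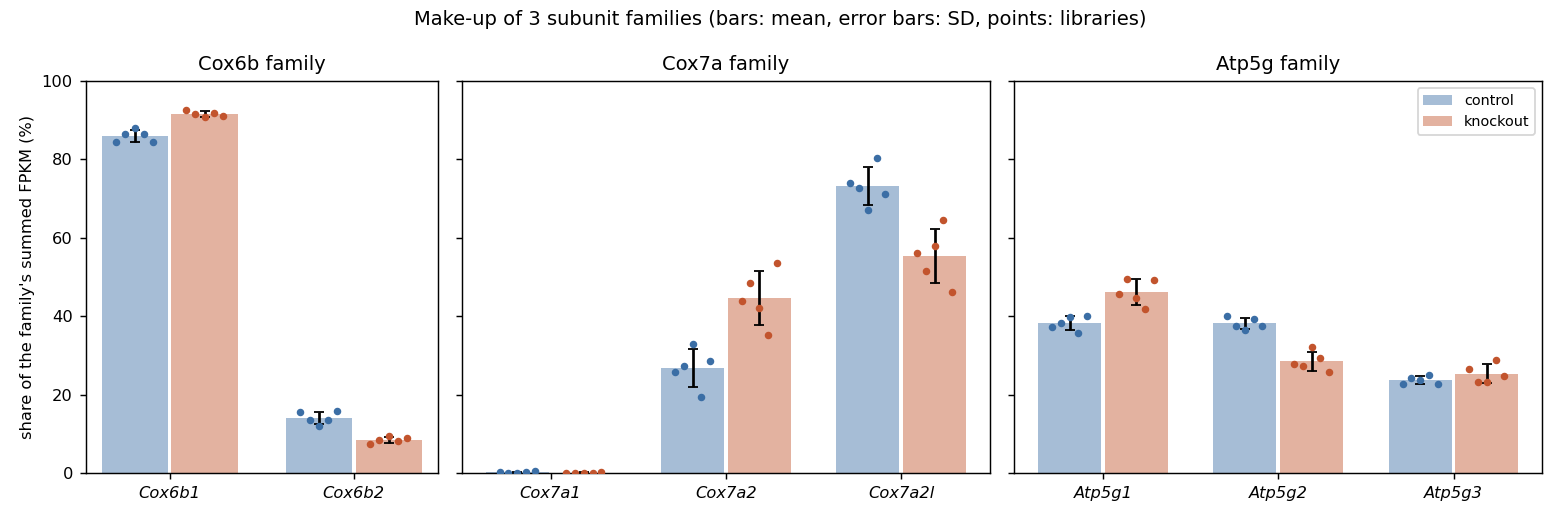
Share of each gene in the summed FPKM of its family, in percent, for the Cox6b, Cox7a and Atp5g genes. Bars are means of 5 control (blue) or 5 knockout (orange) libraries, error bars are SD and points are libraries. Atp5g2 stands at 38.2% in the controls and 28.5% in the knockouts, and Cox7a2l at 73.1% and 55.3%.

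Control library WT4 touched nearly every result above. It was the highest control for 37 of the 39 tested members, the exceptions being Atp5a1 and Atp5sl, for which WT2 was highest. The median excess of WT4 over the mean of the other 4 controls was 0.57 on the log2 scale for the members and 0.11 for all tested genes. The excess was larger for genes with less annotated exon, which is not the length of a single transcript. Over the 8 members with under 1000 bp of annotated exon its median was 0.93 and over the 31 longer ones 0.54, and the Spearman correlation of excess with exonic length was -0.44 over the 39 members and -0.48 over all 6913 tested genes, which come from the same libraries. The change between the groups went with length more weakly (Spearman -0.08 over the members, -0.18 over all tested genes). Split at the same length, the median change was 1.16 for the 8 short members and 0.86 for the 31 longer ones. WT4 was also the library highest in the macrophage score and had the largest FPKM sum of the controls.

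Without WT4 the groups lay further apart. WT4 was singled out as the highest control of most members. Leaving it out could therefore not lower the count of members with every knockout above every control. It also tended to lower the spread of the controls, so these values describe WT4 and are no separate support for the group difference. The number of members with every knockout above every control was then 36 in place of 29, the number called higher was 36, the number called lower was 2 and the members' median change was 1.03. The median coefficient of variation of the members was 22.7% in the controls, 11.0% in the controls without WT4 and 7.47% in the knockouts, where all tested genes gave 16.2%, 14.2% and 14.0%. The controls varied more than the knockouts in 38 of the 39 members, and in 31 of them without WT4.

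**Figure D5:**
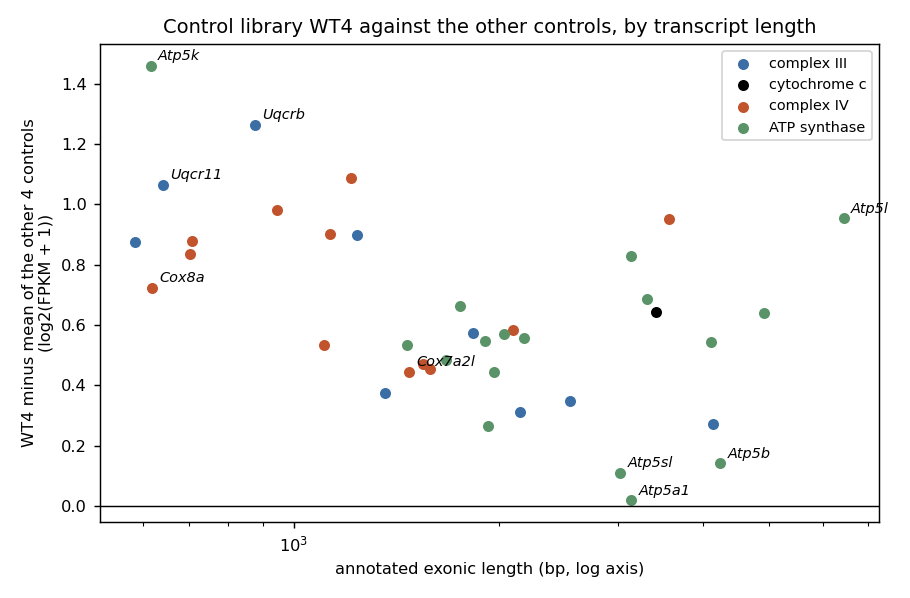
Excess of control library WT4 over the mean of the other 4 controls, on the log2(FPKM + 1) scale, against annotated exonic length in bp on a log axis. Each point is 1 of the 39 tested members, coloured by complex. All points lie above 0, from 0.02 for Atp5a1 to 1.46 for Atp5k, and genes with less annotated exon tend to lie higher.

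Other genes that build or serve these complexes were read from fixed lists. Their counts stand beside 21.1% called higher and 31.6% called lower among all 6913 tested genes. Ndufa4, Usmg5 and 2010107E04Rik, small subunits of complex IV and ATP synthase that carry other names, were all called higher (log2 changes 1.15, 1.06 and 1.12). Of the 6 mitochondrially encoded subunits, which are transcribed inside the organelle, 5 were called higher with a list median of 0.53. The largest changes were in mt-Co3 (0.69), mt-Co2 (0.62) and mt-Co1 (0.56). This count moved with the libraries and the settings: it was 2 without WT2, 1 without WT3, 3 without WT6, CKO7 or CKO12, 2 with no filter and 1 with the granulocyte and bone matrix scores as covariates. Of the 6 carriers and channels that move ATP, ADP and phosphate, 5 were called higher with a median of 0.64. Slc25a5, the adenine nucleotide carrier of dividing cells, went from 508 ± 122 to 972 ± 85.3 FPKM (SD, n = 5 each), Slc25a3, the phosphate carrier, from 361 ± 36.7 to 634 ± 30.3 FPKM, and Vdac2, a channel of the outer membrane, from 82.3 ± 7.58 to 129 ± 7.09 FPKM.

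Assembly factors were read from 3 lists, whose counts depend on the scaling and were not tested against the subunits. Of 23 tested assembly factors of complex IV, 8 were called higher and none lower, with a median of 0.17, where 21.1% of all tested genes were called higher and 31.6% lower. Oxa1l, the insertase that places proteins into the inner membrane, stood at 24.8 ± 3.90 against 55.5 ± 5.93 FPKM (SD, n = 5 in each group, log2 change 1.14, limma adjusted p = 7.85e-06), and Higd1a and the copper chaperone Cox17 rose by 0.69 and 0.64. The count was 5 without CKO8, 4 with no filter, 3 with equal library totals or with the granulocyte and bone matrix scores as covariates, 17 with upper-quartile scaling and 15 with scaling to the authors' fold changes. For complex III, 1 of 5 tested assembly factors was called higher, Uqcc2 at 0.52 (limma adjusted p = 0.0174). That count was 4 with upper-quartile scaling and with scaling to the authors' fold changes, and 0 without WT5, with no filter or with the covariates. With equal library totals, 2 assembly factors of complex IV and 1 of complex III were called lower. For ATP synthase, 1 of 4 was called higher, the inhibitor Atpif1, which stops the enzyme from running backwards, at 543 ± 184 against 935 ± 90.4 FPKM. The count was 2 without WT4, 3 with library quality weights and 4 with upper-quartile, median-of-ratios or authors' scaling. The shares of 1 in 5 and 1 in 4 lie near that of all tested genes and say nothing particular about these lists. The list of regulators of nuclear mitochondrial genes held 12 genes, of which 7 were tested. None of the 7 was called higher by limma (1 at an unadjusted p under 0.05), and Tfb2m, a mitochondrial transcription factor, was called lower (-0.36, limma adjusted p = 0.0247). These regulator counts moved with the scaling, to 5 higher and none lower under upper-quartile scaling, and Tfb2m was not called without WT2, WT5, CKO7 or CKO13. Without WT2, CKO12 or CKO13, 1 regulator was called higher. Nrf1, a nuclear activator of many respiratory genes that is named here after its values were seen, had means of 33.6 FPKM in the controls and 34.9 FPKM in the knockouts and was not called. The untested regulators were low. Yy1 (4.71 to 5.09 against 3.01 to 4.05 FPKM), Esrra (2.67 to 3.43 against 1.34 to 2.41 FPKM) and Ppargc1a (0.72 to 1.29 against 0.26 to 0.71 FPKM) had every knockout below every control. The values of Ppargc1a were near 0 and its groups nearly met. In Ppargc1b and Tfb1m the groups overlapped. Among the 6913 tested genes, whose levels are higher, 22.1% had every knockout below every control. With the filter at 1 FPKM, 3 regulators were called lower, where 4890 of all 13448 genes then tested were. That count says nothing particular about the list.

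The start regions of the members were read because so many moved together. RefSeq windows on GRCm38.p6, the assembly also known as mm10, were at hand for 35 of the 45 members, each 300 bases long with 250 before and 50 after the start. Both strands were searched for the NRF1 motif GCGCANGCG, for the ETS motif CCGGAAG that GABPA binds, and for the YY1 motif AANATGGCG, where N is any base. None of the 3 motifs contains another, and matches that overlap each other were each counted. NRF1 matched in 11 of 35 members (31.4%), ETS in 10 (28.6%) and YY1 in 4 (11.4%), where the shares among all 27025 genes of the window table were 7.03%, 9.93% and 2.76%. Among the 32 tested members with a window the shares were 34.4%, 31.2% and 12.5%, where those among all 5395 tested genes with a window were 17.8%, 25.4% and 7.28%. No motif was found in 16 of the 35. A match is a run of letters and does not show that a factor binds there.

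The following stretches are shown for the complex III gene with the largest change, for the Cox7a pair whose ratio shifted, and for an ATP synthase subunit that rose beside the gene named like one that fell. Each is written 5′ to 3′ on the gene's own strand from the bases before the RefSeq start that lie outside annotated exons, and capitals mark motif matches.
Uqcr11 upstream stretch, chr10:80406831-80407071, minus strand: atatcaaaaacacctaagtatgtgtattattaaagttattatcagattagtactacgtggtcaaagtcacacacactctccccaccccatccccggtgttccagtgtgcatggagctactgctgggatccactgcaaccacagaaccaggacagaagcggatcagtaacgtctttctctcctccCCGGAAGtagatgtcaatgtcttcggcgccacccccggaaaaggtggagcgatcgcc
Cox7a2 upstream stretch, chr9:79759879-79760103, minus strand: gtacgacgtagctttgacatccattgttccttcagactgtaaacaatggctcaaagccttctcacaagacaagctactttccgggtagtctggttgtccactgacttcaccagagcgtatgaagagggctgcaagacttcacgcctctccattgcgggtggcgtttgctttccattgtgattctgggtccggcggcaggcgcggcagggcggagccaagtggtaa
Cox7a2l upstream stretch, chr17:83514334-83514583, minus strand: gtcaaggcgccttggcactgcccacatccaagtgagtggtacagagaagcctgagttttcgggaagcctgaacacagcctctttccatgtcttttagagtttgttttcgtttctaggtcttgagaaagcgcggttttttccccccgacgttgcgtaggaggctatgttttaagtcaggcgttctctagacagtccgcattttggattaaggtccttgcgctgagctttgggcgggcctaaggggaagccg
Atp5l upstream stretch, chr9:44920752-44920992, minus strand: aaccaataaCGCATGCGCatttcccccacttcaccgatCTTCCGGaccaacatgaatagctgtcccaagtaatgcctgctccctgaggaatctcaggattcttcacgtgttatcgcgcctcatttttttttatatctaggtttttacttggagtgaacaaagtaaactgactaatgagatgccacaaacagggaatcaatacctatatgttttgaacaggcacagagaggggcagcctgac
Atp5sl upstream stretch, chr7:25619164-25619413, plus strand: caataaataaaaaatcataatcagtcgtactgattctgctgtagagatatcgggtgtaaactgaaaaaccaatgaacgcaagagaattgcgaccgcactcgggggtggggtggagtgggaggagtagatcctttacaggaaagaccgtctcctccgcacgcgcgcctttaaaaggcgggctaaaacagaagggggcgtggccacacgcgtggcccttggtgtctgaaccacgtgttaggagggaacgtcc
Uqcr11 held an ETS match 66 bases before its start, and its NRF1 match lies outside the stretch. Atp5l held an NRF1 match and an ETS match, both on the strand opposite to the gene, and another ETS match lies outside the stretch. Cox7a2 and Cox7a2l, of which the first rose and the second was not called, had no match in the whole window. The Cox7a2l stretch lies inside the longer gene model that GENCODE M21 gives. Atp5sl, which fell, had no match in its printed stretch and a YY1 match in the rest of its window.

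Some levels may hold reads of other genes. Exons of 13 members overlap those of another gene, for example Atp5a1 and Haus1, Cox4i1 and Emc8 or Atp5j and Gabpa, and without a stated strand setting reads of such pairs cannot be told apart. Processed pseudogenes resemble several members, and the 6 pseudogene rows named after members reached at most 2.76 FPKM.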

How the data were processed

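RNA was measured in 5 control and 5 knockout samples. Per the submitters' processing notes, the tools were Bowtie 0.12.9, HTSeq and Cufflinks 2.1.1 on mm10, with no statement of their roles or of a strand setting. The authors deposited a single table, whose library columns are unnamed in unit and were taken as FPKM values, as earlier results of these data describe them. Beside them, per the file headers, the authors deposited mean normalized signal (baseMean), log2 fold changes, Wald scores and raw and adjusted p-values. Gene IDs were matched to GENCODE M21 (52097 of 52097).

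Computed here were log2(FPKM + 1) values, a limma 3.58.1 fit in R 4.3.3 (trend and robust options, two-sided, no covariate) over genes that reached 10 FPKM in at least 5 libraries, and exact permutation tests of isoform ratios. The fit was tested on simulated data. Columns were assigned to groups by name, since their numbers match no sample title. Lists of marker and related genes gave counts and medians only. Summed muscle and testis markers were read as background for tissue isoforms. Alternatives changed the pseudocount, filter, scaling, weights, covariates or libraries.

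Values in every library were given for, in each complex, the gene with the highest mean, the 2 with the largest and the 1 with the smallest change, for isoform pairs, and for tested members not called or called lower. Pairs whose rarer form was near 0 were given by range. From other lists up to 3 called genes with the largest change were named, with Nrf1, the untested regulators and the sort markers added. Members and lists were chosen with earlier results of these data known. Promoter sequences are from RefSeq (GRCm38.p6), and matched 35 of 45 members.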

Additional observations from a re-analysis of the deposited data

Results flagged for a closer look

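In 52 groups of 5 libraries, namely the controls and the knockouts for the 20 tested genes described by library and the 6 isoform ratios, 1 library was set against the other 4. The gap of the most extreme library to its nearest neighbour, divided by the group's whole range, passed 0.71 in 3 groups. Chance alone flags about 1 in 20 independent groups, but these groups share the same libraries. Other members were not checked, among them some where WT4 also stood far above the other controls. Examples are Uqcrb (403 FPKM, other controls at most 186), Cox6c (319, at most 174) and Atp5j (384, at most 233). On the log2(FPKM + 1) scale the highest control library of Cox8a was WT4, with a gap of 0.797 of the range. WT4 was also the highest control of Atp5k, with a gap of 0.8. In the knockouts, CKO7 was the highest library of Cox6b1, with a gap of 0.817 of a narrow range (693 to 728 FPKM).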

How the results depend on the processing

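Over 22 alternative fits, 33 of the 39 tested members kept their direction and their call. The other 6 were Atp5g2, Uqcrb, Cox6b2, Uqcrh and Atp5sl, whose call changed in at least 1 fit, and Cox7a2l, whose sign changed. The number called higher ran from 32, with the granulocyte and bone matrix scores as covariates, to 36. The number called lower was 1 with upper-quartile scaling, with scaling to the authors' fold changes and in the authors' deposited table. Leaving out each library gave 34 to 36 higher and 2 lower. The libraries highest in bone matrix, granulocyte, macrophage and erythroid markers are WT6, WT3, WT4 and CKO7, so leaving those out is part of that range. Cox7a2l turned to 0.39 with upper-quartile scaling and 0.31 with scaling to the authors' fold changes. Calls of Atp5g2, Uqcrb and Cox6b2 were lost with the covariates (limma adjusted p = 0.0508, 0.0691 and 0.191). The Cox4i2/Cox4i1 ratio differed by -0.51 with a pseudocount of 5 (exact permutation, adjusted p = 0.00952), and by -0.52 to -0.19 when each library was left out, with a call without WT5 (exact permutation, adjusted p = 0.0476). The Atp5g1/Atp5g3 ratio gave 0.12 to 0.26, with a call without CKO12 (exact permutation, adjusted p = 0.0286). The cause of these shifts was not tested. The read depth is unknown, so no limit on low values such as those of Cox8b can be given. No paired analysis was possible because the numbers in the column names match no sample title and pair no libraries.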
